A study of Mus musculus with 1187 samples.

Results

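Sox7, Sox17 and Sox18, the 3 members of the SoxF group of transcription factors, were followed through 1187 single endothelial cells of the mouse brain. The members were taken by gene symbol and make up 3 of the 46517 gene rows in the count table. The cells came from adult C57BL/6 mice and were sorted one by one into wells as positive for Cldn5-GFP, a green reporter under a tight junction gene of endothelium, and negative for Cspg4-DsRed, a red reporter that marks mural and oligodendrocyte precursor cells. Full-length cDNA libraries were made with Smart-seq2, which tags no molecules. Per the labels, 590 cells were from Pdgfb ret/+ mice and 597 from Pdgfb ret/ret mice, which lack the retention motif of PDGF-B on both alleles and have few brain pericytes. Both groups carried the reporters and at least one ret allele, so no cell was wild type at Pdgfb, and no label named an animal. Columns of the table carried a plate and a well but no genotype, and no label named a plate or well. The ret/ret against ret/+ comparison was therefore not made, and all cells were described as 1 pooled sample on 4 plates, numbered 521 to 524, and no difference was tested. Plates 521 and 522 add up to 590 columns and plates 523 and 524 to 597, as many as there are ret/+ and ret/ret labels. A match in number does not say which cells a plate holds, so no genotype was assigned from it. Genotype, animal and batch cannot be told apart in any difference between plates.

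SoxF proteins bind DNA through an HMG box and are known as partly interchangeable regulators of vessel formation. Sox17 is best known for arterial identity, where it acts together with Notch signalling, and for its link to Wnt/beta-catenin signalling in endothelium. Sox18 is known for starting the lymphatic programme through Prox1 and for vessel integrity, and Sox7 for vascular patterning and for early blood and endothelial development.

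The table held 418924921 reads, and cells had between 100779 and 584112 reads (median 360947). Plates held 300, 290, 285 and 312 cells. At a fixed depth of 100000 reads per cell, the median number of genes with a read was 4156, 3902, 3278 and 3464 on plates 521, 522, 523 and 524. The 8 endothelial marker genes summed to 12797 CPM (reads of a gene per 1000000 reads), between 11886 and 13542 CPM on single plates. The list of pericyte genes summed to 54.9 CPM, that of smooth muscle to 12.1 CPM and that of fibroblasts to 21.1 CPM, and the median cell had 0 CPM for each of these lists. In all, 17 cells had at least 3 markers of another cell type at 100 CPM or more.

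All members were abundant, and Sox18 was read in nearly every cell. Sox18 lies on chromosome 2, bases 181669836 to 181671640 of the minus strand (GRCm38), with 2 exons of 1620 bases in all. Its level in reads summed over all cells was 455, 461, 558 and 522 CPM on plates 521 to 524, and 499 CPM over all plates (95% counting interval 497 to 501). Its plate values were close together, the highest being on plate 523. At fixed depth 92.2% of cells had a Sox18 read (95% exact Clopper-Pearson interval 90.6% to 93.7%), between 91.0% and 94.0% on single plates, and without thinning 94.7%. Such intervals cover counting error only, since reads of one library are not independent molecules.

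Sox17 lies on chromosome 1, bases 4490931 to 4497354 of the minus strand, with 4 merged exons of 4772 bases in all. Its level was 182, 244, 297 and 343 CPM on plates 521 to 524, and 267 CPM over all plates (265 to 268). Sox17 varied more between plates than the other members did, with the lowest level on plate 521 and the highest on plate 524. A Sox17 read was present in 73.5% of cells (70.9% to 76.0%), from 66.3% on plate 521 to 82.1% on plate 524, and in 77.2% without thinning. Gm37587, a noncoding gene on the opposite strand, overlaps Sox17 over 804 bases of Sox17 exon. Gm37587 stood at 5.01, 7.70, 15.6 and 19.1 CPM on the 4 plates, in the same order as Sox17. Its reads and those of Sox17 cannot be told apart in these counts where they overlap, and whether the counting used strand is not stated.

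Sox7 lies on chromosome 14, bases 63943673 to 63950732 of the plus strand, with 2 exons of 3299 bases in all. Its level was 207, 216, 169 and 173 CPM on plates 521 to 524, and 191 CPM over all plates (190 to 192). Plates 521 and 522 were the higher plates for Sox7, the reverse of Sox17. Only 46.8% of cells had a Sox7 read (43.9% to 49.6%), 55.0%, 53.4%, 37.2% and 41.3% by plate, and 52.5% had one without thinning. Where Sox7 was read, it was not low: the median Sox7 level of cells with a read was 348 CPM. The same median was 276 CPM for Sox17 and 483 CPM for Sox18. Sox7 reads were thus spread over fewer cells, with 0 reads in about as many cells as had any.

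Per kilobase of merged exon, which adjusts for exon length, Sox18 had 308 RPKM (CPM divided by the exon length in kilobases). Sox7 had 57.9 RPKM and Sox17 55.9 RPKM. The Sox17 length merges the exons of 8 annotated transcripts, whereas Sox7 and Sox18 have 1 transcript each. Comparisons between genes rest on this choice of length, and other lengths were not tested. Sox18 gave 73.0% of the summed SoxF RPKM, and between 70.9% and 75.2% on single plates. Sox7 and Sox17 did not differ beyond their spread over plates, since Sox7 ranged from 51.2 to 65.5 RPKM and Sox17 from 38.2 to 71.8 RPKM. Of the 17 other Sox genes listed, 7 reached 1 CPM. Sox13, a SoxD factor, came nearest the SoxF genes at 30.1 RPKM (26.9 to 33.7 over plates), below the lowest plate value of each member, and was read in 46.7% of cells. Sox4, a SoxC factor, had 4.84 RPKM and Sox9, a SoxE factor of cartilage and glia, 2.45 RPKM. Sox15, Sox12, Sox6 and Sox5 had 1.18, 1.05, 0.300 and 0.102 RPKM. The other 10 stayed under 1 CPM, among them the neural factors Sox1 and Sox2 and the oligodendrocyte factor Sox10. Sox14 and Sry had reads in 0 of 1187 cells at fixed depth, which allows a share of up to 0.253% of cells with a read.

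**Figure D1:**
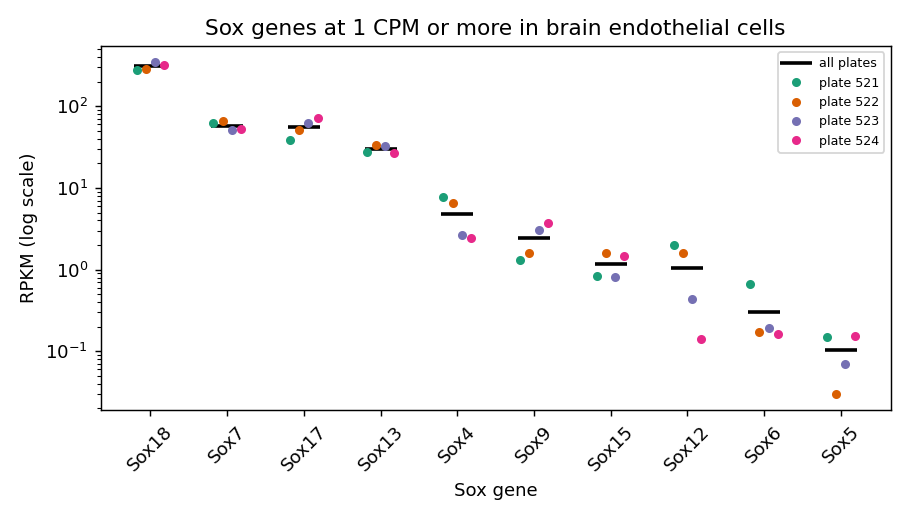
Level of each Sox gene at 1 CPM or more, in RPKM on a log scale, over all plates (black bars) and on each plate (points). Sox18 stood highest at 308 RPKM, followed by Sox7, Sox17 and Sox13, and the other 6 genes were under 5 RPKM.

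The rule that defined the zones used other genes. At fixed depth, a cell with a read of Bmx, a kinase gene of arterial endothelium, or Gkn3, a gene of brain arteries, and with none of the venous markers was called an arterial-marker cell. A cell with a read of Il1r1, the interleukin-1 receptor, or Adgrg6, an adhesion receptor, and with no arterial marker was called a venous-marker cell. There were 321 arterial-marker cells (109, 93, 53 and 66 by plate), 144 venous-marker cells (44, 34, 29 and 37), 59 cells with both kinds of marker and 663 with neither. A single read carried the label in 45 arterial-marker and 11 venous-marker cells. Genes that took no part in the rule moved as the names say, but their lists were chosen with earlier results of these data known. They describe the classes and are no independent support for them. All 12 further arterial markers were at least 1.5-fold higher in arterial-marker cells, 11 of them higher on every plate. All 7 measured further venous markers were at least 1.5-fold lower, 6 of them lower on every plate. The median number of genes with a read was 3896 in arterial-marker and 4034 in venous-marker cells.

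Sox17 and Sox18 were higher in arterial-marker than in venous-marker cells on each of the 4 plates, and Sox7 was not. Of the 3 members, 2 were at least 1.5-fold higher in arterial-marker cells, beside 13.6% of the 11997 genes at 5 CPM or more in either class. Both were also higher within every plate, beside 7.16% of genes that met both conditions. No member was 1.5-fold lower, beside 11.9% of genes. The median log2 ratio of all genes was 0.00.

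Sox17 stood at 266, 342, 408 and 436 CPM in the arterial-marker cells of plates 521 to 524. In venous-marker cells it stood at 145, 102, 188 and 287 CPM. Arterial-marker cells were higher on every plate, but the 2 sets of plate values overlapped, because the venous value of plate 524 lay above the arterial value of plate 521. Over all plates Sox17 was at 347 CPM against 179.9 CPM, which is 1.92-fold higher in arterial-marker cells (log2 ratio 0.94, SD over plates 0.48). Within plates the log2 ratio was 0.87, 1.74, 1.11 and 0.61. Of the 11997 genes, 818 had a higher ratio than Sox17. A Sox17 read was present in 82.2% of arterial-marker cells (77.6% to 86.3%) and in 68.1% of venous-marker cells (59.8% to 75.6%), and without thinning in 83.8% and 72.2%. The plate shares ranged from 78.0% to 89.4% and from 55.9% to 81.1%. Gm37587 moved with Sox17, at 17.9 CPM in arterial-marker and 3.40 CPM in venous-marker cells. Its part in the Sox17 difference was not tested.

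Sox18 stood at 559, 546, 761 and 671 CPM in arterial-marker cells and at 386, 392, 469.7 and 390.0 CPM in venous-marker cells. The plate values did not overlap: the lowest arterial value lay above the highest venous value. This held for Sox18 alone among the members, beside 3.65% of all genes for which every arterial value was above every venous one. Over all plates Sox18 was at 613 against 405 CPM, 1.51-fold higher (log2 ratio 0.60; 0.53, 0.48, 0.70 and 0.78 by plate). The value lies at the 1.5-fold mark, and it fell just under it without plate 523 (0.58) or without plate 524 (0.54), while the direction held on every plate. Sox18 reads were equally widespread in both zones, in 94.1% of arterial-marker and 93.8% of venous-marker cells. In single cells the median Sox18 level was 556 CPM in arterial-marker cells (quartiles 345 and 852) and 358 CPM in venous-marker cells (quartiles 175 and 555).

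Sox7 stood at 202, 264, 190 and 179.9 CPM in arterial-marker cells and at 188, 231, 307 and 195 CPM in venous-marker cells. Neither zone had the higher level on all plates. The venous level was highest on plate 523, and the arterial level on plate 522. Over all plates Sox7 was at 212 against 223 CPM (log2 ratio -0.07), and within plates the ratio was 0.10, 0.19, -0.69 and -0.11. Without plate 523 it was 0.10, so that its sign rested on that plate. The share of cells with a Sox7 read was 50.8% in arterial-marker cells (45.2% to 56.4%) and 61.1% in venous-marker cells (52.6% to 69.1%). These counting intervals overlapped, but the venous share was the higher one on every plate. By plate it was 63.6%, 64.7%, 69.0% and 48.6% in venous-marker cells against 52.3%, 59.1%, 39.6% and 45.5% in arterial-marker cells. Without thinning the shares were 65.3% and 55.8%, again with the venous one higher on every plate.

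**Figure D2:**
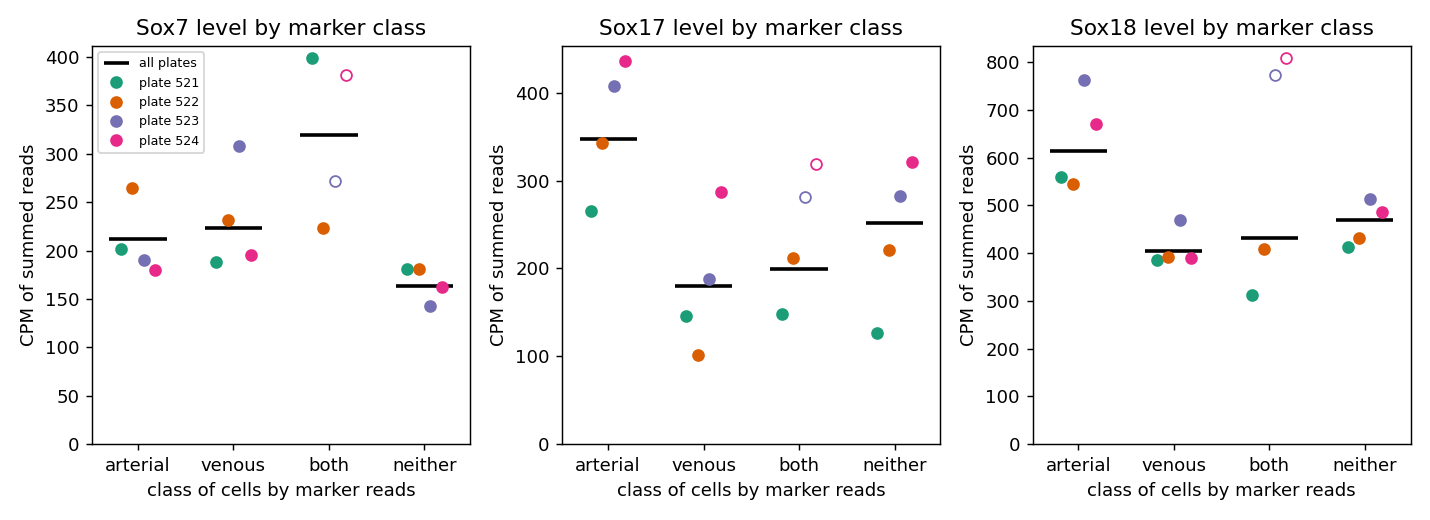
Level of Sox7, Sox17 and Sox18 in reads summed over the cells of each marker class, in CPM, over all plates (bars) and by plate (points, open where a plate had under 10 cells of the class). Arterial values of Sox18 all lie above its venous values, those of Sox17 are higher plate by plate with overlap, and those of Sox7 are mixed.

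Cells with neither kind of marker, the largest class, lay over all plates between the zones for Sox17 and Sox18 and below both for Sox7. In these unmarked cells Sox17 was at 126, 221, 282 and 321 CPM by plate (252 CPM over all), Sox18 at 413, 432, 512 and 487 CPM (469.5 CPM), and Sox7 at 181, 181, 142 and 162 CPM (163 CPM). Plate 521 had the lowest Sox17 level here and among arterial-marker cells, as it did over all cells. Arterial-marker cells were higher than these on 4 of 4 plates for each member, with log2 ratios of 0.46 for Sox17, 0.38 for Sox18 and 0.37 for Sox7. All were under 1.5-fold, a mark that 9.01% of 11858 genes reached in this direction. By any amount, 51.2% of these genes were higher over all plates. The share of genes higher on 4 of 4 plates is not given, so that agreement has no background beside it. Within plates the Sox17 ratio was 1.07, 0.63, 0.53 and 0.44, and the mean of these, 0.67, was past 1.5-fold, so this call depends on whether plates are pooled. Venous-marker cells were lower than unmarked cells on 4 of 4 plates for Sox18 (log2 ratio -0.21) and on 3 of 4 for Sox17 (-0.48; 0.20 on plate 521). For Sox7 they were higher on 4 of 4 plates, with a log2 ratio of 0.45 that ranged from 0.06 to 1.11. Unmarked cells also had fewer genes with a read at fixed depth (median 3449) than either zone, and the part of this in the Sox7 difference was not tested.

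The 59 cells with both kinds of marker had the highest Sox7 level of any class, 319 CPM over all plates, and a Sox7 read in 72.9% of cells (59.7% to 83.6%). Only plates 521 and 522 had at least 10 such cells, with Sox7 at 398 and 223 CPM. On plate 521 Sox7 was above its level in both zones and on plate 522 below it. Plates 523 and 524 had 5 such cells each, with Sox7 at 272 and 381 CPM. On plates 521 and 522 Sox17 was at 149 and 212 CPM and Sox18 at 312 and 409 CPM, below their arterial-marker levels there. In the 5 cells each of plates 523 and 524, Sox17 was at 282 and 319 CPM, also below its arterial-marker level. Sox18 was at 772 and 809 CPM in them, above its arterial-marker level of 761 and 671 CPM. The 59 cells had a median of 4521 genes with a read, more than the other classes.

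**Figure D3:**
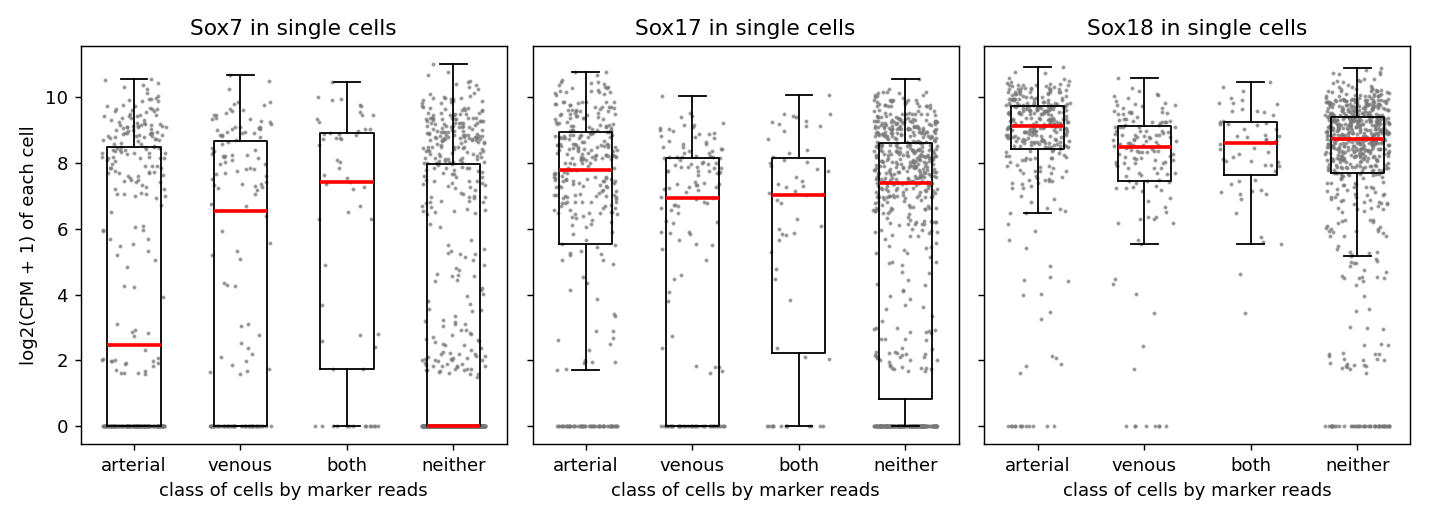
Sox7, Sox17 and Sox18 in each cell by marker class, as log2(CPM + 1). Boxes show quartiles with the median in red, whiskers reach the last cell within 1.5 box lengths, and points are cells. Many cells had 0 Sox7 reads in every class, whereas few had 0 Sox18 reads.

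The 4 class markers were then taken apart, with groups formed after the values of the classes had been seen. Sox17 was at 410 CPM in the 129 cells with both Bmx and Gkn3 reads, 330.4 CPM in the 115 with Bmx alone and 264 CPM in the 77 with Gkn3 alone. Sox18 followed the same order with 709, 572 and 514 CPM. Sox7 did not: it was lowest with Bmx alone, at 149 CPM, and was at 274 CPM with Gkn3 alone and 232 CPM with both. Over plates Sox7 ranged from 109 to 182 CPM with Bmx alone and from 205 to 342 CPM with Gkn3 alone. For Sox17 the ranges were 326 to 586 CPM with both, 251 to 461 CPM with Bmx alone and 138 to 692 CPM with Gkn3 alone. For Sox18 they were 576 to 893, 529 to 664 and 413 to 767 CPM, so the order of these groups lies within the spread of plates for both genes. Among venous markers, Sox17 was at 191 CPM in 105 cells with Il1r1 alone and 161 CPM in 25 cells with both markers, and no plate held 10 of the latter cells.

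Counting markers that took no part in the rule gave a finer view, again set up after the class values had been seen. Of the 12 further arterial markers, which include the connexins Gja4 and Gja5 and the ephrin ligand Efnb2, 223 cells had at least 4 with a read and 507 had at most 1. Sox17 was at 399, 463, 483 and 423 CPM in the former and at 133, 213, 203 and 274 CPM in the latter, by plate. Sox18 was at 653, 646, 831 and 684 CPM against 385, 405, 455 and 407 CPM. For both genes the plate values did not overlap, which was so for 4.58% of 11947 genes in this direction.

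Over all plates this gave a log2 ratio of 1.09 for Sox17 and 0.78 for Sox18, and both were past 1.5-fold, beside 12% of genes. Sox7 was at 218 against 176 CPM (log2 ratio 0.31; 0.67, -0.01, 0.36 and 0.34 by plate). Sox17 went from 194 CPM in the 74 cells with 0 of these markers to 599 CPM in the 64 cells with 7 or more. Sox18 went from 440.3 to 752 CPM between the same bins, with its highest level, 805 CPM, in the 51 cells with 5 markers. The median number of genes with a read also differed between these end bins, 3339 against 4134, and its part was not tested.

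On the venous side, 184 cells had at least 4 of the 8 further venous markers, which include the adhesion molecules Vcam1, Icam1 and Selp, and 507 had at most 1. Sox17 was at 139, 153, 206 and 418 CPM in the former and at 200.5, 322, 318 and 388 CPM in the latter. It was lower on 3 of 4 plates, and the exception was plate 524, with 13 marker-rich cells. Plates 521 and 522 held 92 and 63 of the marker-rich cells, whereas plates 523 and 524 held 176 and 204 of the marker-poor cells. The log2 ratio over all plates was -0.99 for Sox17, past 1.5-fold lower, beside 12.3% of 11988 genes, and -0.42 for Sox18, which was lower on 4 of 4 plates. The mean of the 4 within-plate ratios was -0.53 for Sox17, which is under 1.5-fold, so that this call was lost within plates, and -0.40 for Sox18. Sox7 went the other way, with a log2 ratio of 0.62 (0.19, 0.27, 1.19 and 0.01 by plate), past 1.5-fold higher, beside 13.6% of genes. It was largest on plate 523, with 16 marker-rich cells, and the mean of the within-plate values, 0.42, was under 1.5-fold. Marker-rich cells had a median of 4354 genes with a read, against 3372.

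**Figure D4:**
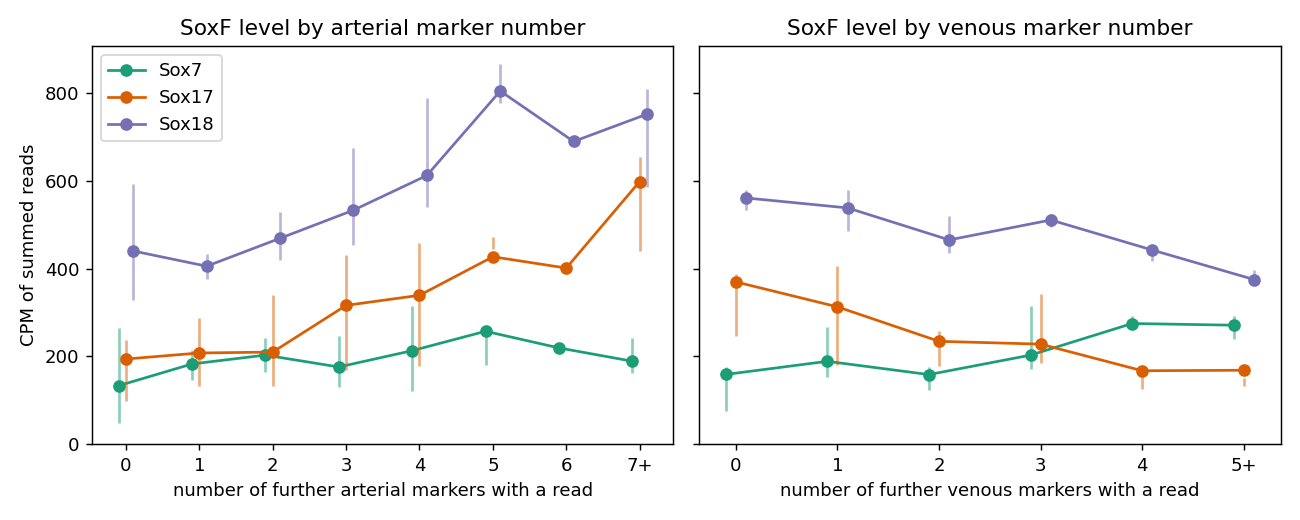
Level of Sox7, Sox17 and Sox18 in CPM of summed reads by the number of further arterial (left) or further venous (right) markers with a read at fixed depth. Points are all plates together, and vertical lines span the plates with at least 10 cells in the bin where there were at least 2 such plates, so a point can lie outside its line. Sox17 was at 194 CPM with 0 arterial markers and at 599 CPM with 7 or more.

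Many cells had reads of several SoxF genes. At fixed depth 34.1% of cells had reads of all 3 members, 34.2% of Sox17 and Sox18 without Sox7, 13.8% of Sox18 alone and 10.1% of Sox7 and Sox18 without Sox17. Only 1.60% of cells had none (95% interval 0.966% to 2.49%). Sox17 without Sox18 was rare, at 3.62% of cells alone and 1.60% with Sox7.

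The combinations that hold Sox7 or Sox17 but not both differed between zones. These shares follow in part from the shares of cells with a read of each gene given above, so they are not a separate result. Sox7 and Sox18 without Sox17 were read in 6.54% of arterial-marker cells (4.09% to 9.83%) and in 18.1% of venous-marker cells (12.1% to 25.3%), and the venous share was the higher one on 4 of 4 plates. Sox17 and Sox18 without Sox7 were read in 34.6% of arterial-marker cells (29.4% to 40.1%) and in 23.6% of venous-marker cells (16.9% to 31.4%). The arterial share was the higher one on 4 of 4 plates, but on plate 524 the shares were nearly equal, 43.9% against 43.2%. No share over other genes stands beside these counts of plates. All 3 members were read in 42.7% of arterial-marker, 40.3% of venous-marker and 27.0% of unmarked cells. Pairs were read together about as often as the product of their shares gives: 35.7% against 34.4% for Sox7 and Sox17, 44.2% against 43.1% for Sox7 and Sox18, and 68.3% against 67.8% for Sox17 and Sox18. Across cells within plates the mean Pearson correlation of log2(CPM + 1) was 0.05 for Sox7 and Sox17, 0.09 for Sox7 and Sox18 and 0.09 for Sox17 and Sox18. Values this low in sparse counts were not read as a relation.

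**Figure D5:**
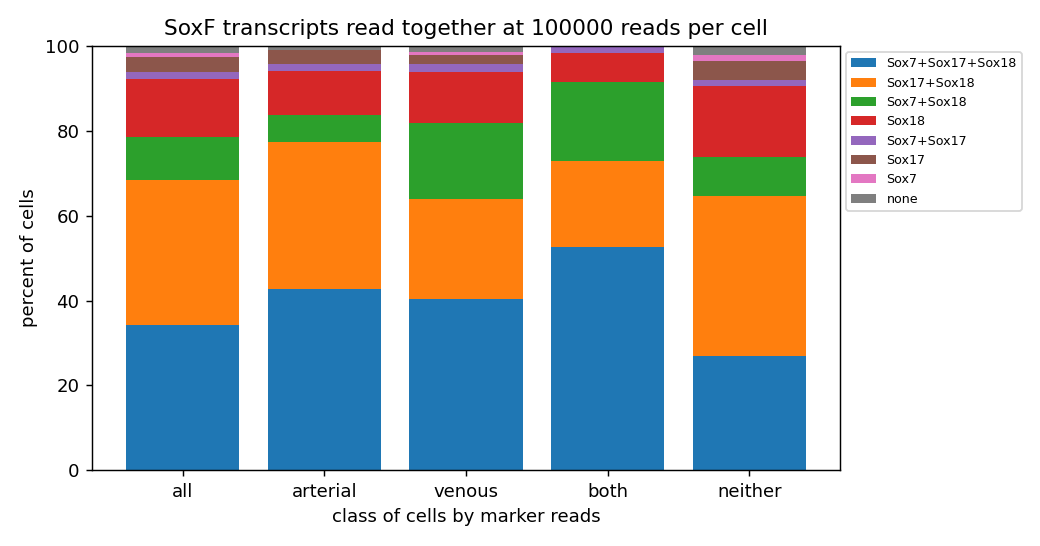
Percent of cells with each combination of SoxF reads at 100000 reads per cell, for all cells and by marker class. Cells with Sox7 and Sox18 but no Sox17 read (green) took 6.54% of arterial-marker and 18.1% of venous-marker cells.

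The 5 genes whose pattern over the 1187 cells was most like that of each member, by the same correlation averaged over plates, were different for the 3 members. For Sox17 they were Alpl, the alkaline phosphatase of arterial and capillary brain endothelium (r = 0.25), Slc26a10 (0.23), Aif1l (0.21), Gm694 (0.20) and Lmo7 (0.20). For Sox18 they were the glutamine synthetase gene Glul (0.24), Teddm2 (0.23), Mir8114 (0.23), the hypoxia factor Epas1 (0.20) and Id1 (0.19), a target of BMP signalling. Teddm2 and Mir8114 overlap the start of Glul in the annotation, so these 3 may share reads. For Sox7 they were Junb (0.19), Zfp36 (0.17), RP23-281H4.10 (0.16), Jund (0.16) and Atf3 (0.15). The 99th percentile over 10018 genes was 0.13 for Sox17, 0.11 for Sox18 and 0.12 for Sox7, so all these values are low, and cells of one plate share library preparation and depth. The actin-binding peptide gene Tmsb10 had the lowest value for Sox17 (-0.26) and for Sox18 (-0.18).

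Junb, Zfp36, Jund and Atf3 belong to the immediate early genes, which respond within minutes to stress and growth signals, and 10 such genes were therefore summed for each cell after this list had been seen. In the cells at or over their plate's median of this sum, Sox7 was at 265, 263, 202 and 205 CPM. In the cells under the median, it was at 146, 168, 135 and 143 CPM. Sox7 was higher in the former on every plate without overlap, beside 2.32% of 11808 genes. Since the summed genes were picked for their likeness to Sox7 in these same cells, nothing is read from such shares. Over all plates the log2 ratio was 0.66 for Sox7, past 1.5-fold, beside 6.26% of genes, and the share of cells with a Sox7 read was 53.5% against 40.0%.

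Sox17 was at 307 against 226 CPM in these 2 sets of cells (log2 ratio 0.44, higher on 4 of 4 plates), and Sox18 was at 497 against 501 CPM (-0.01). The median number of genes with a read was 3725 against 3555. The immediate early genes summed to 2491, 4671, 6661 and 5196 CPM in the venous-marker cells of plates 521 to 524 and to 3806, 4766, 5283 and 3627 CPM in arterial-marker cells. Sox7 was at 307 CPM in venous-marker and 190 CPM in arterial-marker cells of plate 523, and at 195 and 179.9 CPM on plate 524. The part of the immediate early genes in the Sox7 values was not tested. Among cells under the median alone, the log2 ratio of arterial-marker to venous-marker cells was -0.35 for Sox7, 0.83 for Sox17 and 0.71 for Sox18.

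In cells with against without a read of a given gene, the mean within-plate log2 ratio of Sox17 was past 1.5-fold for 5 of 7 measured further arterial markers (0.474% of 9704 genes were this high). These were Alpl at 1.32, the connexin Gja4 at 0.85, Stmn2 at 0.81, the Notch target Hey1 at 0.69 and Sema3g at 0.63. Gja4 was the exception to agreement between plates, with a ratio of -0.13 on plate 524. Sox17 was past 1.5-fold lower, beside 0.35% of genes, in cells with a read of the transferrin receptor Tfrc (-0.69) and of Ivns1abp (-0.66), 2 of 6 measured capillary markers. The capillary marker Rgcc went the other way (0.24, higher on 4 of 4 plates). Sox17 was also lower in cells with the sprouting gene Angpt2 (-0.69) and the guidance receptor Robo4 (-0.71), on 4 of 4 plates each. Robo4 was read in 89.8% of cells, so its value rests on few cells without a read. Nid2, the other of the 2 measured sprouting genes, was at 0.08, so Angpt2 does not stand for that list. No venous marker reached this mark for Sox17, and Il1r1 was nearest at -0.54. Of 17 measured partner and neighbouring transcription factors, only Klf2 passed the mark for Sox17, at 0.66 (from 0.16 to 1.22 by plate). Klf2 was read in 86.4% of cells, so few cells stood on the side without it.

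Sox18 was past 1.5-fold for Gja4 alone among the listed markers, at 0.67 (0.66, 0.74, 0.56 and 0.73 by plate), beside 0.0103% of 9705 genes. Its other arterial values ran up to 0.53 for Alpl. Sox7 passed the mark with the ETS factor Fli1 (1.05, from 0.12 to 2.18 by plate), beside 0.175% of genes. It also did so with Robo4 (0.64), where plates disagreed (-0.29 to 2.28). Fli1 was read in 85.5% of cells and Robo4 in 89.8%, so both values rest on few cells without a read. Among zone markers, Sox7 was higher on 4 of 4 plates in cells with Il1r1 (0.51), Icam1 (0.47), Gkn3 (0.47), Sema3g (0.32) and Vcam1 (0.30), thus with markers of both zones. None of these reached 1.5-fold, and the share of all genes higher on 4 of 4 plates is not given.

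Other genes of the pathway were read from lists chosen for this purpose, by the same comparison of arterial-marker with venous-marker cells. Of 16 genes described in endothelium as regulated by SoxF factors, 14 reached 5 CPM. Of these, 4 were at least 1.5-fold higher in arterial-marker cells with every plate the same way, and 2 were lower (7.16% and 4.33% of all genes), with a median log2 ratio of 0.08 beside 0.00 for all genes. Higher were the Notch ligand Dll4 (241 against 123 CPM, log2 ratio 0.97), Hey1 (200.3 against 14.5 CPM, 3.70), Efnb2 (74.9 against 6.62 CPM, 3.32) and the netrin receptor Unc5b (134 against 4.12 CPM, 4.72). Lower were Vcam1 (-0.95) and the venous factor Nr2f2 (-2.86). Cldn5, the gene of the sort reporter, was at -0.05, the cadherin Cdh5 at 0.05 and the VEGF receptor Kdr at -0.15. Prox1, the lymphatic target of Sox18, and Mmp7 did not reach 5 CPM. Hey1 and Efnb2 also stand among the further arterial markers, and Vcam1 and Nr2f2 among the further venous ones.

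Of 14 Notch pathway genes, 12 were measured, 5 were at least 1.5-fold higher in arterial-marker cells on every plate and 0 were lower on every plate (7.16% and 4.33% of all genes), with a median of 0.53. Dll1, a Notch ligand, was at least 1.5-fold lower (-1.35), but not on plate 524 (0.24). These were the receptor Notch4 (0.94), the ligands Dll4, Jag1 (1.27) and Jag2 (1.75), and Hey1. Notch1 was at 0.58, just under the mark, and Rbpj, the DNA-binding partner of Notch, at 0.05. Of 21 partner and neighbouring transcription factors, 20 were measured, with a median of 0.01. Past 1.5-fold, 2 were higher and 2 lower, shares near those of all genes (13.6% and 11.9%). Gata2 (0.67) and Epas1 (0.61) were higher and Nr2f2 lower on every plate, Foxc1 was lower (-0.61) on 3 of 4 plates, and the ETS factor Erg (0.42) and the shear-responsive Klf2 (0.34) did not reach the mark. Among the other Sox genes, Sox13 was at 228 CPM in arterial-marker and 88.9 CPM in venous-marker cells (1.35, 4 of 4 plates), and Sox9 was at 3.02 against 17.8 CPM (-2.22, 4 of 4 plates). Sox4 was at 26.2 against 43.1 CPM (-0.70, 3 of 4 plates).

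Signs of other cell types were small in both zones. Summed pericyte genes were at 34.3 CPM in arterial-marker and 44.9 CPM in venous-marker cells, smooth muscle genes at 14.9 and 7.80 CPM, and fibroblast genes at 32.9 and 3.38 CPM. Without the 17 cells that carried markers of another cell type, the log2 ratio of arterial-marker to venous-marker cells was 0.92 for Sox17, 0.58 for Sox18 and -0.07 for Sox7.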

How the data were processed

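The deposited table held raw read counts per gene and cell made by the authors. The submitters' processing notes name the aligner TopHat2 2.1.1, SAMtools 0.1.18, Subread 1.4.6-p5 and its counter featureCounts, and the GRCm38 and mm10 builds. Whether counting used strand is not given in these sources. Positions and exon lengths are from GENCODE M21 (GRCm38). Analysis used Python 3.11.15 with numpy 2.4.6, pandas 2.3.3 and scipy 1.17.1. Each cell was thinned without replacement to 100000 reads, which lost 0 cells, and classes and shares of cells with a read come from the thinned reads. Levels are CPM of unthinned reads summed over cells. Log2 ratios add 1 CPM to both sides. A gene counted as measured from 5 CPM in either class, and was called at 1.5-fold. Plate values need at least 10 cells, except where stated. No test of a difference was made, since there was 1 pooled sample and cells are not replicates. No doublets were called or removed.

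Named genes were the members, Sox genes at 1 CPM or more, listed genes 1.5-fold apart in the same direction within each plate, and the 5 genes most like each member. Others were named after their values were seen. The members and lists were chosen with earlier results of these data known. The immediate early genes, the groups by single marker or marker number with their within-plate means, the comparison by reads of a gene, the combinations, 2 alternatives and the reading of an alternative under 1.5-fold as a lost call were chosen after the class values had been seen. Scripts were tested on simulated data. Alternatives changed the class cut, class markers, depth, prior, scaling, filters, plates and cells.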

Additional observations from a re-analysis of the deposited data

Results flagged for a closer look

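Sox18 in venous-marker cells stood at 469.7 CPM on plate 523 (29 cells), against 386, 392 and 390.0 CPM on plates 521, 522 and 524. The gap between the highest plate and the next, set against the range over the 4 plates, was above Dixon's critical value at the 95% level. Chance alone exceeds this value in a small share of groups. How many groups were screened is not given, so the flag is no test of a difference. Plate 523 also had the highest Sox18 level over all cells, 558 CPM, and among arterial-marker cells, 761 CPM. The venous value of plate 523 remained below every arterial value of Sox18.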

How the results depend on the processing

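Over 19 alternatives, 2 of them chosen after seeing the data, the arterial to venous log2 ratio of Sox17 ran from 0.73 to 1.30 and stayed past 1.5-fold in all 19. That of Sox7 ran from -0.35 to 0.10 and was above 0 in 3 of 19: with Gkn3 as the only arterial marker (0.03), with Adgrg6 as the only venous marker (0.06) and without plate 523 (0.10). That of Sox18 was above 0 in all 19, from 0.46 to 0.71, but fell under 1.5-fold in 5. These were classes from unthinned reads (0.46), Adgrg6 as the only venous marker (0.57), removal of cells with markers of another type (0.58) and leaving out plate 523 or plate 524, where the range over left-out plates was 0.54 to 0.64. The cause was not tested. Requiring 10 reads lowered the share of cells with Sox17 to 60.3% and with Sox18 to 84.9%, and without thinning the Sox18 share was 94.7%. Levels over all cells moved by less than the SD over plates. The 1627 genes higher and 1427 lower became 887 and 786 at 20 CPM, 3391 and 2925 without that filter, and 752 and 618 at 2-fold. Median-of-ratios scaling shifted ratios by 0.017. The mean of the 4 within-plate ratios, which pairs the classes by plate, was 1.08 for Sox17, 0.62 for Sox18 and -0.13 for Sox7. Depth limits classes that rest on single reads.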
